A study of Rattus norvegicus with 3 samples.

Results

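In rat testicular germ cells, estrogen receptor beta (ERβ) gave 10836 regions without a called peak of estrogen receptor alpha (ERα) or the mock immunoprecipitation. They are the valid ERβ peaks on chromosomes 1 to 9, 11 and 13 to 20 that overlap no ERα peak and no mock peak by even 1 bp, and they make up 88.9% (95% exact binomial interval 88.4 to 89.5) of the 12184 valid ERβ peaks on those 18 chromosomes. A further 479 unmatched ERβ peaks lay on other sequences and were not kept. Chromatin immunoprecipitation with sequencing (ChIP-seq) was done on testicular germ cells of adult male rats (Holtzman strain, 75 to 90 days old, with treatment labelled as not applicable), and 1 library was made for a Sigma anti-ERβ antibody, 1 for a Millipore anti-ERα antibody and 1 for a mock precipitation with anti-rabbit immunoglobulin G (IgG). Per the labels' protocols, tubule cells were freed with trypsin and DNase after hypotonic lysis of interstitial cells, and nylon mesh held back Sertoli cells, so the germ cells were enriched and not pure. The number of animals behind a library is not given in the sources used here. Peak positions carry no marker that could check the cell type.

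ERβ is a ligand-activated transcription factor of the nuclear receptor family, encoded by Esr2. After binding estrogen it forms dimers that sit on palindromic estrogen response elements or are held at DNA by other factors, and it shares a closely similar DNA-binding domain with ERα, so that both receptors can occupy the same elements. In the rodent testis ERβ has been described in germ cells as well as in Sertoli cells. Which genes or response elements lie at the regions below was not analysed here, because no genome of the lists' build was at hand. Positions are those of the deposited lists, counted from 1, and scaffolds are named there as in the Rnor_6.0 assembly.

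These regions were chosen by the measured peak positions, as ERβ peaks with no ERα or mock peak on them, so their number is a description and no test was made of it. Each antibody has 1 library, and no value below carries a replicate error. The intervals cover counting error only and treat neighbouring peaks as independent. For scale, the same rule left 4019 of the ERα peaks and 13890 of the mock peaks on the same chromosomes without a partner. Over all sequences these lists hold 5347 valid ERα and 15750 valid mock peaks. Most peaks of each list thus had no partner, and a high share without one was not particular to ERβ. Of the 1348 ERβ peaks that the rule left out, 669 touched both other lists, 459 touched a mock peak alone and 220 an ERα peak alone. The limit of the rule was narrow for a few regions. Just inside it, chr1:56007198-56007576 (score 48.65) lay 1 bp from a mock peak, chr2:194731446-194731971 (score 32.63) lay 6 bp from one and chr7:19638635-19639182 (score 31.59) lay 11 bp from one. Just outside it, chr16:55784944-55785501 (score 31.14) overlapped a mock peak by 1 bp, while chr14:22418230-22418684 (score 36.35) and chr8:92021975-92022504 (score 32.44) overlapped a mock and an ERα peak, respectively, by 2 bp. Such cases were few: 53 of the ERβ-alone regions lay within 100 bp of another list, and 72 of the left-out peaks overlapped by 100 bp or less.

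The ERβ-alone regions had lower scores than the ERβ peaks that touched another list. The score that the authors deposited for each peak, which has no stated unit, ran from 30.01 to 101 with a median of 33.97 and quartiles of 31.5 and 37.9. A score of 40 or more was reached by 1669 regions (15.4%), 50 or more by 299 (2.76%, interval 2.46 to 3.09), 60 or more by 68 and 100 or more by 1. The left-out ERβ peaks, which touch another list, had a median of 48.65 and reached 50 in 652 of 1348 cases. The low end of the ERβ list was mostly regions without a partner, as was the whole list on these chromosomes (88.9%). Widths ran from 278 to 1378 bp with a median of 555 bp, and the middle 50% lay between 510 and 584 bp. In the other lists alone, the median score was 34.5 and the median width 565 bp for mock alone, and 38.48 and 570 bp for ERα alone. Each list has its own score scale, so these medians do not rank the lists by strength. Together the regions covered 6085 kb.

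Width was not spread evenly. Between 575 and 579 bp there were 547 regions and between 580 and 584 bp 532, but between 585 and 589 bp there were 114 and between 590 and 594 bp 103. The drop lay at the width where the commonest kind of region reached the lowest score of the list. Score and width were tied to each other by a family of curves. Each score was matched, within 0.02 score units, by 10 times the negative decimal logarithm of the probability that a Poisson variable exceeds a whole number, with a mean that grows in proportion to peak width and is held constant below 400 bp. That whole number is called the step here. A single fitted mean of 1.04 per 400 bp placed all 10836 regions on such a curve, without a rate of its own for any position and without any value from the mock library. The form of the curves was found after the data were seen, and the lists do not state it.

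**Figure D1:**
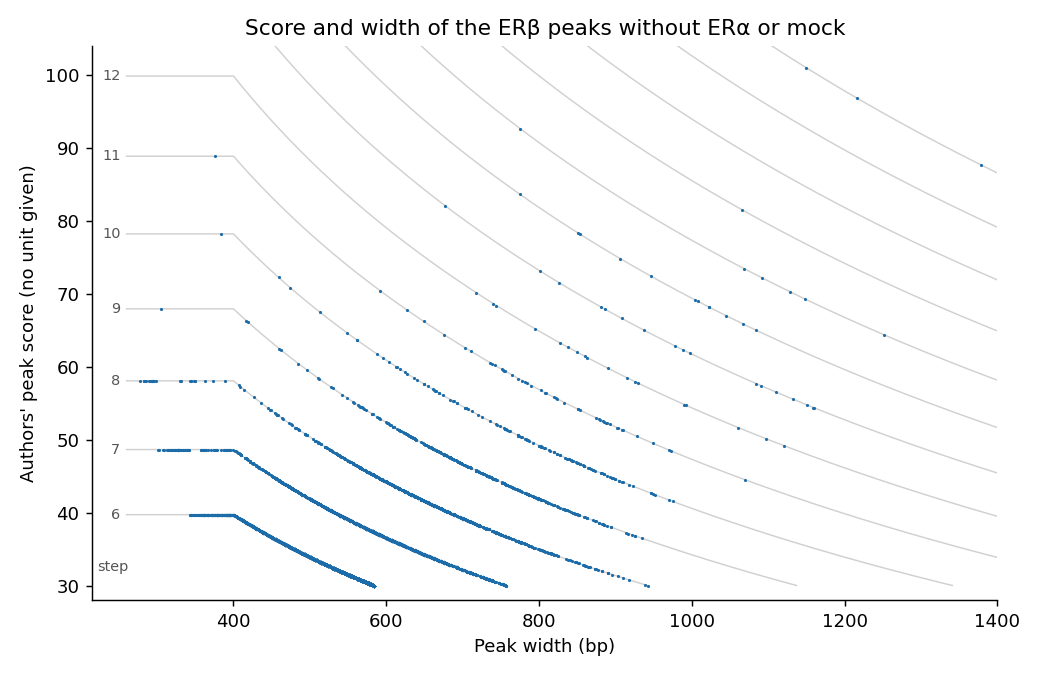
Peak score (unit not stated) against peak width in bp for the 10836 ERβ peaks without ERα or mock, 1 point each, with the fitted curves in grey and their steps 6 to 12 at the left. All points lie on the curves, which are flat below 400 bp and then fall with width; the lowest curve ends near 584 bp, where its score reaches 30.

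Most of these regions stood at the lowest step. Step 6 held 6805 of them (62.8%, interval 61.9 to 63.7), step 7 held 2526 (23.3%), step 8 held 914 (8.44%), step 9 held 356 (3.29%), step 10 held 131 (1.21%) and step 11 held 47 (0.434%). The remaining 57 stood at step 12 or more, and the highest step was 19. Over the median width of 555 bp the fitted mean was 1.44, which is the level against which a step of 6 is scored. If a score is such a tail probability, the step stands for the reads or fragments in a peak, but the lists hold no read counts, so it is used below only as an order of strength.

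Within a step the score falls with width by the way the curves are built. Over all ERβ-alone regions, across steps, Spearman's rho between score and width was -0.096. Step 6 regions were 343 to 584 bp wide, with a score of 39.73 at 400 bp or less, a median score of 32.1 and a lowest score of 30.01. Step 7 regions were 301 to 757 bp wide and scored 48.65 at 400 bp or less, and step 8 regions were 278 to 942 bp wide and scored 58.08 there. A score near 40 can mark a narrow region of step 6 or a wider one of step 8, whose median score was 41.4. The single commonest score was 39.73. It stood at 196 regions, of which 195 were step 6 regions of 400 bp or less. None of the 1511 regions over 600 and up to 700 bp stood at step 6, while 2553 of the 3075 regions over 550 and up to 584 bp did.

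Regions of higher step were less often free of a partner. Of all ERβ peaks at step 6 on these chromosomes, 95.3% touched neither other list, and of those at step 7, 93.2%. The share was 89.7% at step 8, 79.8% at step 9, 61.8% at step 10 and 49.0% at step 11. At step 12 or more it was 10.1%, or 57 of 565. The rule uses peak positions and not scores, but positions include width, and wider peaks meet a 1-bp overlap more easily. Among the ERβ-alone regions the median width rose from 537 bp at step 6 to 990 bp at step 12 or more. These shares describe the lists, and neither their fall with step nor the part of width in it was tested.

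The other lists followed curves of the same form with their own fitted means, 1.11 per 400 bp for ERα and 0.994 for mock. Of the ERα-alone peaks, 15 of 4019 (0.373%) stood at step 6 and 2706 (67.3%) at step 7, so that most of them lay a step or more higher. Step 6 held 62.8% of the ERβ-alone regions. For these, being without ERα means no call in a list whose unpartnered peaks rarely stand at that step. Weaker ERα signal there could not be seen. Of the mock-alone peaks, 9142 (65.8%) stood at step 6, 2879 (20.7%) at step 7 and 1104 (7.95%) at step 8. At step 7 or more the numbers were 4031 for ERβ alone, 4004 for ERα alone and 4747 for mock alone. At step 8 or more they were 1505, 1298 and 1868, and at step 10 or more 235, 210 and 323. The mock number was the highest of the 3 at each of these limits. The fitted means differ between the lists, so a step does not mark exactly the same score in each, and with 1 library per antibody the difference between lists could not be tested.

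**Figure D2:**
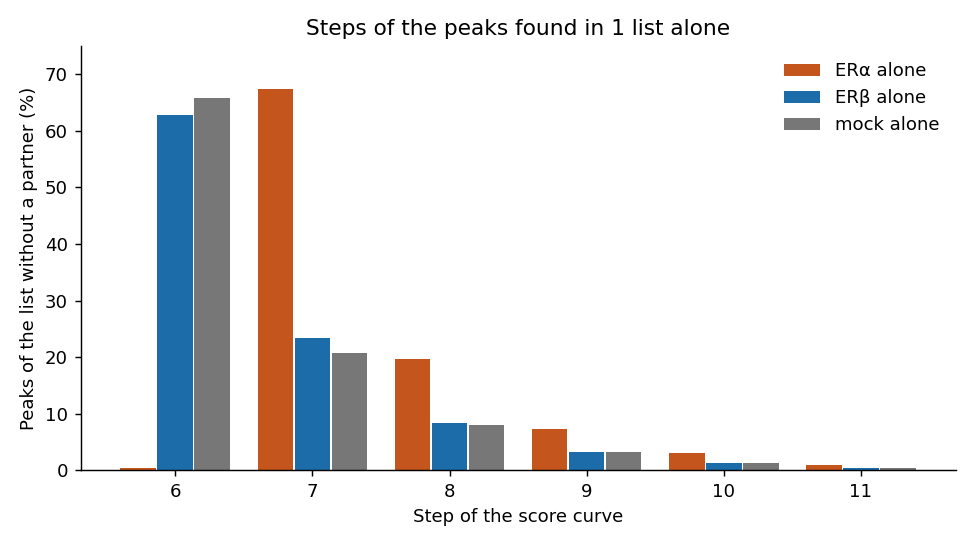
Share of peaks without a partner (%, from 0) at steps 6 to 11 of the score curves, for ERα alone (4019 peaks), ERβ alone (10836) and mock alone (13890). ERβ and mock have most peaks at step 6, with 62.8% and 65.8% there; ERα has 15 peaks (0.373%) at step 6 and 67.3% at step 7.

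Of the 20 strongest ERβ-alone regions, 7 lay on 3 stretches of chromosome 1. The highest was chr1:55372133-55373282, 1150 bp wide, at step 19 with a score of 101; its nearest mock peak lay 135 kb away and its nearest ERα peak 94.6 kb away. Next came chr1:54949986-54951201 (score 96.84, step 19), with an ERα peak 1518 bp and a mock peak 1206 bp away, and chr1:39135608-39136382 (score 92.67, step 15), with an ERα peak 1396 bp away. The fourth by score, chr1:55196369-55196744, had 88.87 at step 11 and was 376 bp wide, so that it stood above wider regions of higher step. It lay 14.4 kb from an ERα peak of score 358 and 14.4 kb from a mock peak of score 269.

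Outside chromosome 1 the highest region was chr17:57717142-57718519, which was also the widest of all at 1378 bp, with a score of 87.7 at step 19 and a mock peak 1865 bp away. It was followed by chr19:323715-324489 (score 83.64), chr3:40263654-40264330 (score 82.08) and chr9:11762578-11763428 (score 78.35), the last with a mock peak of score 35.3 at 540 bp. The regions chr1:99108334-99109399 (score 81.51) and chr1:99039567-99039949 (score 78.22) lay 2394 and 1526 bp from a mock peak. Some of the leading regions thus sat directly beside peaks of the other lists. The clearest were chr18:38417420-38418325 (score 74.84), 110 bp from an ERα peak of score 179 and 134 bp from a mock peak of score 182, and chr3:143892838-143893905 (score 73.48), 23 bp from an ERα peak and 117 bp from a mock peak.

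The other 8 of the leading 20 scored 70.43 to 78.15. They were chr16:401315-402168 and chr16:75001079-75001904, chr7:655228-656028, chr7:1614689-1615635 and chr7:99304952-99305425, chr14:94305539-94305997, chr1:39177424-39178515 and chr15:65904307-65904898. Of the 20, 12 had a mock peak and 7 an ERα peak within 10 kb, and 10 lay in 1-Mb windows with 20 or more mock peaks. The whole set had a mock peak within 10 kb at 20.4% of its regions and lay in such windows at 6.88%. After chromosome 17, the widest regions were chr15:12195889-12197139 (1251 bp), the chromosome 1 region at 54949986 (1216 bp), chr17:63895546-63896705 (1160 bp) and chr4:27366129-27367287 (1159 bp). The steps of these 5 widest regions were 13 to 19.

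Each of the 18 chromosomes carried a region scoring at least 58.08. The lowest of these chromosome maxima was chr13:69860232-69860523, a 292-bp region of step 8. Between it and the leading chromosomes lay chr20:43519350-43519811 (62.32), chr5:37287671-37288183 (67.5), chr11:4286507-4287133 (67.8), chr4:164781191-164782076 (67.91) and chr6:57957945-57958966 (68.21). Chromosome 2, with the most regions of any, reached 70.15 at chr2:74558462-74559179, and chromosome 8 reached 70.31 at chr8:72490022-72491149.

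The nearest peak of another list was usually a mock peak. Distances were measured between edges. The median distance from an ERβ-alone region to a mock peak was 41.2 kb, with quartiles of 13.3 and 107 kb, and to an ERα peak 147.5 kb, with quartiles of 49.8 and 359.8 kb. The mock peak was the nearer one for 8292 of the regions (76.5%). The mock list holds 15750 peaks and the ERα list 5347, and the part of list length in this order was not tested. A mock peak lay within 1 kb of 382 regions (3.53%) and within 10 kb of 2212 (20.4%), and an ERα peak within 1 kb of 158 (1.46%) and within 10 kb of 874 (8.07%). In all, 2645 regions (24.4%) had a peak of either list within 10 kb and 8624 (79.6%) within 100 kb. The mock-alone peaks, measured the same way, had an ERα peak within 10 kb at 8.63%, close to the 8.07% for ERβ alone.

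Closeness to the other lists grew with the step. A mock peak lay within 10 kb of 18.97% of the step 6 regions, 21.4% at step 7, 23.2% at step 8, 25.3% at step 9, 27.5% at step 10 and 29.8% at step 11. For an ERα peak these shares were 7.10%, 7.17%, 11.6%, 12.4%, 18.3% and 25.5%. Of the 57 regions at step 12 or more, 28 (49.1%) had a mock peak and 24 (42.1%) an ERα peak within 10 kb. Strong ERβ-alone regions were therefore nearer to regions of the other lists than weak ones, although none touched one. Among the 299 regions with a score of 50 or more, 119 (39.8%, interval 34.2 to 45.6) had a peak of either list within 10 kb, against 24.4% of the whole set. The steps carry no replicate and were not tested.

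A few strong regions were far from any other peak. Among those with a score of 50 or more, the furthest was chr1:205289662-205290434 (score 50.57, step 10), 690 kb from the nearest mock peak and 963 kb from the nearest ERα peak. The region chr8:49221348-49221909 (score 63.64, step 10) also lay 690 kb away from mock, and chr16:69456190-69456737 (score 64.7, step 10) lay 642 kb away. All of these 3 stood at step 10, which 235 of the ERβ-alone regions reached or passed. The other 7 were chr19:54397137-54397755, chr5:69141873-69142481 and chr5:103706768-103707050, chr9:95847258-95847684, chr7:35606709-35607190, chr11:69225869-69226692 and chr4:68395648-68395992. They lay 243 to 443 kb from the nearest peak, scored 51.21 to 58.08 and stood at steps 8 to 11. None of the 10 belonged to a chain of ERβ-alone regions or to a window dense in mock peaks.

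Spacing was next described as the gap between neighbouring ERβ-alone regions on a chromosome. Over 10818 gaps the median was 121 kb, the quartiles were 44.5 and 281 kb, and the mean was 225 kb with a standard deviation of 315 kb. The standard deviation was 1.40 times the mean, and the median was 0.538 of the mean, so short gaps were many and a few were very long. The smallest gap was 14 bp. A gap of 1 kb or less followed 122 regions (1.13%), one of 10 kb or less 806 (7.45%, interval 6.96 to 7.96) and one of 100 kb or less 4853 (44.9%). The mock-alone peaks had a median gap of 74.2 kb, a standard deviation 1.84 times their mean and 12.1% of gaps at 10 kb or less. The ERα-alone peaks had 319.9 kb, 1.39 times and 4.02%. In spread relative to the mean, ERβ alone lay beside ERα alone and below mock alone. The left-out ERβ peaks were of another kind, with a median gap of 11.5 kb and 48.0% of gaps at 10 kb or less.

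**Figure D3:**
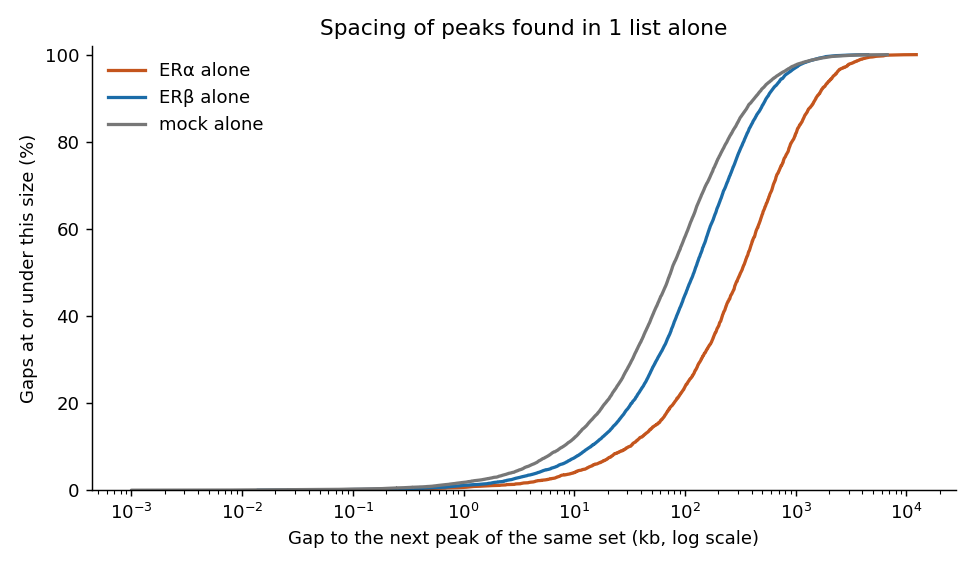
Cumulative share (%) of gaps to the next peak of the same set, in kb on a log scale, for peaks found in the ERα, ERβ or mock list alone. The curves have similar shapes and are shifted, with medians of 74.2 kb for mock, 121 kb for ERβ and 319.9 kb for ERα.

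The longest stretch without an ERβ-alone region was chr5:168042250-172524076, 4.48 Mb long, and held 3 mock peaks, 2 ERα peaks and 0 ERβ peaks. A stretch of 4.34 Mb at chr1:85608694-89950552 differed from it: 5 ERβ peaks lay there, all of them touching another list, together with 18 mock and 7 ERα peaks. The next was chr15:104254049-108145609, 3.89 Mb long, with 14 mock peaks, 1 ERα peak and 0 ERβ peaks. Each of these 3 stretches thus held mock peaks.

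Regions with gaps of at most 10 kb were joined into chains. Of the 10836 regions, 1514 (14.0%, interval 13.3 to 14.6) belonged to 708 chains, and 9322 stood alone. Most chains were pairs: 634 had 2 regions, 62 had 3, 7 had 4, 2 had 5, 2 had 7 and 1 had 8. The median chain spanned 5.97 kb. No mock or ERα peak lay within the span of 608 chains, but 33 of the 74 chains of 3 or more did enclose one. Of the 246 regions in these longer chains, 67 (27.2%, interval 21.8 to 33.3) stood at step 8 or more, against 16.8% of all chained regions and 13.4% of single ones. Chained and single regions had nearly the same median score, 34.3 and 33.9. Scores of neighbouring regions were almost unrelated, with Spearman's rho of 0.0138 over all neighbours and 0.0987 over those within 10 kb.

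The longest chain had 8 regions over 28.2 kb at chr1:173315995-173344219. Scores there ran from 30.01 to 57.43, and the span also held 4 further ERβ peaks, 6 mock peaks and 4 ERα peaks. Chains of 7 lay at chr1:54420402-54442439, with a median score of 50.03 and 5 regions at step 8 or more, and at chr14:22032440-22055683, with 8 mock and 3 ERα peaks in its span. The chromosome 1 chain of 7 had the highest median score of the 10 chains named here and held 1 mock peak and 2 ERα peaks within it. Chains of 5 lay at chr1:77277201-77300913 and chr1:110171965-110192893, the latter with a region of score 68.96. Of the 7 chains of 4, the 5 that come first by chromosome and start complete these 10. They were chr1:77212071-77226614, chr3:143860844-143873618 and chr3:167476350-167489344, chr6:140098372-140109348 and chr7:2138122-2157802. Of the 10 chains, the first of the chromosome 3 pair and the chromosome 6 chain held neither a mock nor an ERα peak. The second chromosome 3 chain had the lowest median score of these 10, with all 4 regions at step 6 and a highest score of 34.43.

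In 1-Mb windows the ERβ-alone regions were spread widely. Of 2462 windows, 174 (7.07%) held none, the mean was 4.401, the median was 4 and the highest count was 19. The variance of the counts was 2.27 times their mean. It was 1.72 times for ERα alone and 4.45 times for mock alone, whose highest counts were 10 and 35. Their mean counts were 1.632 and 5.642, so these ratios do not rank ERα alone, ERβ alone and mock alone by evenness. The part of the mean count in the ratios was not tested. For the left-out ERβ peaks, which were absent from 83.8% of windows, the ratio was 15.2 at a mean of 0.5475. ERβ-alone counts were therefore far more even than those of the ERβ peaks shared with another list. The 175 windows with 10 or more regions held 2038 of them (18.8%).

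Windows rich in ERβ-alone regions were also rich in peaks of the other lists. Windows without such a region had a mean of 1.22 mock-alone peaks, those with 1 to 3 regions 3.20, those with 4 to 6 regions 6.16, those with 7 to 9 regions 9.43 and those with 10 to 19 regions 12.3. For ERα-alone peaks these means were 0.443, 1.03, 1.76, 2.48 and 3.55. Spearman's rho over the windows was 0.646 with mock-alone and 0.459 with ERα-alone counts. The points share chromosome sequence and the same 3 libraries, and the rho is given as a description. Among the 175 richest windows, 64 held more ERβ-alone regions than mock peaks of any kind. Of the 174 empty windows, 73 had no mock peak, 108 no ERα peak and 55 no peak of any list, while 9 had an ERβ peak that touched another list.

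**Figure D4:**
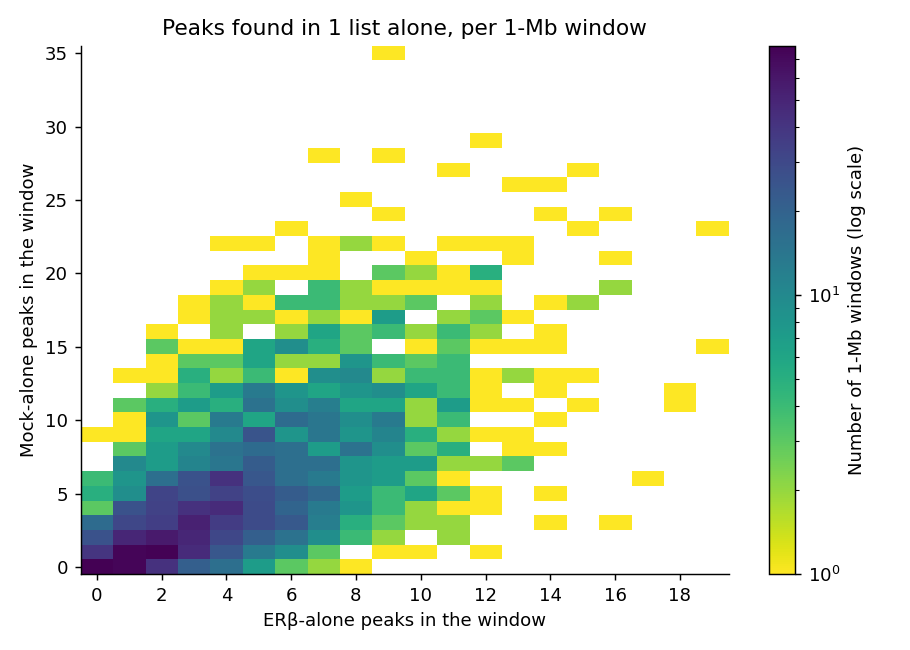
Number of mock-alone peaks against number of ERβ-alone peaks per 1-Mb window, with colour for the number of windows on a log scale, over 2462 windows. Windows with more ERβ-alone peaks hold more mock-alone peaks, from a mean of 1.22 where there is no ERβ-alone peak to 12.3 where there are 10 to 19.

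The 10 richest windows were of more than 1 kind. Both windows with 19 regions started at 110000001 on chromosome 1 and at 77000001 on chromosome 15. In the chromosome 15 window all 19 ERβ peaks were ERβ-alone and all 23 mock peaks were mock-alone, so that peaks of both libraries were frequent and never coincided. The window of chromosome 11 from 4000001 was alike, with 16 ERβ and 24 mock peaks and no contact between them, and in the chromosome 16 window from 88000001 all 16 ERβ peaks were also alone. The windows of chromosome 9 from 8000001 and of chromosome 1 from 39000001 and from 54000001 held 48, 36 and 42 ERβ peaks, of which 18, 17 and 16 touched no other list. There the ERβ-alone regions lay among many shared ones, and their median scores were 34.9, 38.4 and 40.6, against 33.97 for the whole set. The remaining 3 were chromosome 7 from 19000001 (18 regions and 14 mock peaks), chromosome 11 from 49000001 (16 and 20) and chromosome 14 from 22000001 (16 and 51). The chromosome 14 window held 42 ERβ peaks, so shared ones were many there too, but the median score of its ERβ-alone regions was 33.5. Median scores in windows with many shared peaks were thus not all above that of the whole set.

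Windows with 20 or more mock peaks numbered 76, or 3.09% of all windows, and held 745 of the ERβ-alone regions (6.88%, interval 6.41 to 7.37), against 8.61% of the ERα-alone and 9.59% of the mock-alone peaks. These windows were chosen by their mock peaks, so more mock peaks nearby and fewer ERβ peaks free of a partner follow in part from that choice and from the overlap rule. Of the ERβ peaks in those windows, 52.5% were free of a partner, against 93.7% elsewhere. Inside them 6.17% of the regions scored 50 or more (interval 4.56 to 8.15), 19.2% stood at step 8 or more and 27.1% were chained. Outside them the shares were 2.51% (2.21 to 2.83), 13.5% and 13%. A mock peak within 10 kb was found for 49.9% of the regions inside and 18.2% outside, and an ERα peak for 28.2% and 6.58%. The shares of strong and of chained regions were thus both higher in windows dense in mock peaks. The part of mock density in their scores was not tested.

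By chromosome, density ranged 1.72-fold (exact interval 1.54 to 1.91), over lengths taken from the chromosome start to the furthest peak of the 3 lists. Chromosome 11 was densest, with 541 regions at 5.98 per Mb (95% Poisson interval 5.49 to 6.51), followed by chromosome 16 with 512 at 5.65 (5.18 to 6.17), chromosome 15 with 574 at 5.17, chromosome 6 with 749 at 5.07 and chromosome 14 with 581 at 5.04. The intervals of chromosomes 11 and 16 overlap. Chromosome 2 held the most regions, 1300, or 12% of all, at 4.88 per Mb, next to chromosome 9 with 590 at 4.84. The middle of the order was formed by chromosome 18 with 396 at 4.52, chromosome 4 with 805 at 4.37, chromosome 13 with 493 at 4.32, chromosome 3 with 757 at 4.26, chromosome 7 with 602 at 4.13 and chromosome 20 with 227 at 4.05. The intervals of neighbours in that order overlapped. At the low end stood chromosome 5 with 672 at 3.87, chromosome 19 with 232 at 3.73, chromosome 17 with 333 at 3.67, chromosome 8 with 487 at 3.66 and chromosome 1 with 985 at 3.49 (3.27 to 3.71).

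**Figure D5:**
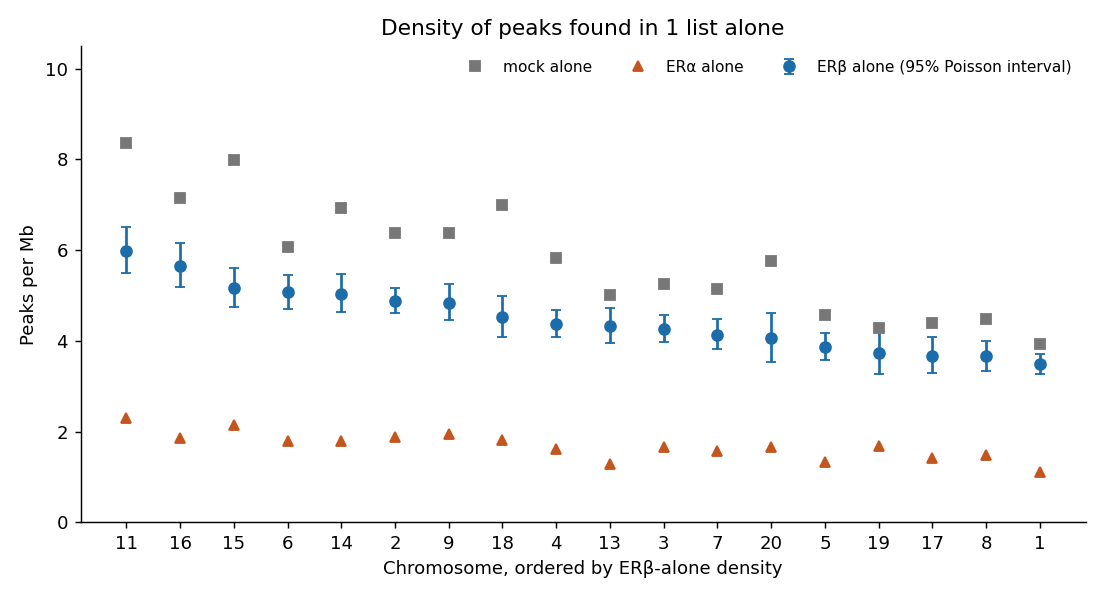
Peaks per Mb on the 18 kept chromosomes, ordered by the density of ERβ-alone peaks, with 95% Poisson intervals for ERβ alone and points for mock alone and ERα alone. ERβ alone falls from 5.98 per Mb on chromosome 11 to 3.49 on chromosome 1, and the other sets are also highest on chromosome 11 and lowest on chromosome 1.

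The order of chromosomes was much the same for peaks found in the other lists alone. ERα-alone density was highest on chromosome 11 (2.30 per Mb) and lowest on chromosome 1 (1.11), and mock-alone density was highest on chromosome 11 (8.37) and lowest on chromosome 1 (3.92). Over the 18 chromosomes Spearman's rho with ERβ-alone density was 0.936 for mock alone and 0.827 for ERα alone (Pearson's r 0.924 and 0.841). These are descriptions over chromosomes that share their sequence and length in the 3 lists. The number of mock-alone peaks per ERβ-alone region ran from 1.12 on chromosome 1 to 1.55 on chromosome 18, with 1.54 on chromosome 15 and 1.15 on chromosome 19. Relative to mock-alone peaks, ERβ-alone regions were thus most frequent on chromosome 1, where their own density was lowest. Mock peaks that touch a receptor peak are not counted in this ratio. Chromosome 1 also had the lowest share of ERβ peaks free of a partner, 75.5%.

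The share of ERβ peaks free of a partner varied widely between chromosomes, whereas score and width hardly did. It was lowest on chromosome 1 (75.5%), chromosome 17 (77.8%) and chromosome 16 (82.2%) and highest on chromosome 5 (96.4%), chromosome 18 (96.1%) and chromosome 6 (95.8%). Median scores of the chromosomes lay between 33.57 and 34.53 and median widths between 548 and 557 bp. Step 6 made up 58.1% of the regions on chromosome 7, the lowest share, and 69.0% on chromosome 19, the highest. Regions of step 8 or more were densest on chromosome 16 (0.939 per Mb), chromosome 11 (0.885) and chromosome 14 (0.824) and sparsest on chromosome 8 (0.353). Spearman's rho of their density with that of all regions was 0.829. They are part of all regions and share the same lengths, so this rho is partly built in. Chromosome 1 held 41 of the 299 regions with a score of 50 or more, among its 985 regions. Chromosome 2 held 33 among 1300, chromosome 16 held 23 among 512, and chromosomes 8 and 19 held 6 each, among 487 and 232. The share over all 18 chromosomes was 2.76%, and these counts do not rank the chromosomes. Chains took 17.6% of the regions on chromosome 20 and 9.04% on chromosome 8.

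Along the chromosomes the regions were spread with modest unevenness. With each chromosome divided into 10 equal parts and the parts summed over chromosomes, the sixth part from the start held the most regions, 1250 (11.5%), and the tenth the fewest, 930 (8.58%). The sixth part was also the fullest for mock alone (12.7%) and ERα alone (12.2%). The first 5 Mb held 401 regions (3.70%), close to the 3.67% of length that they represent, and the last 5 Mb held 438 (4.04%). For mock alone the last 5 Mb held 5.15%. Chromosome ends were therefore not empty of ERβ-alone regions.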

How the data were processed

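The deposited lists hold chromosome, start, end, peak name and the authors' score for each peak. Reads were aligned with Bowtie 1.2, per the submitters' processing notes, and each peak name starts with MACS, the name of a peak caller. Its version, cutoff and control, the genome build and the read depth were not given in the sources used here. Of 12730 ERβ lines, 2 with a damaged position were left out. A mock line with a split score was kept for its position. Widths of 1 to 20000 bp were accepted, and an overlap of 1 bp counted as contact. Overlaps were checked with bedtools 2.31.1 (11315 unmatched ERβ peaks on all sequences by both ways).

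For the score curves, the mean, the width of the flat part and the lowest step were fitted to each list, within 0.02 score units. They matched 12713 of 12728 ERβ scores, 5343 of 5347 ERα scores and 15747 of 15749 mock scores; every unmatched score was 1406 or more. The fit and the overlap step were tested on simulated data.

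Named regions are the 20 highest and 5 widest, the highest of each chromosome, the 10 richest windows, the 10 longest chains, the 10 furthest from other lists at a score of 50 or more, and 3 on each side of the overlap limit. The members and lists were chosen with earlier results of these data known. Planned sequence and gene steps were not run, for want of a genome of the lists' build. Computation used scipy 1.17.1, pandas 2.3.3 and numpy 2.4.6 under Python 3.11.15, with matplotlib 3.10.9 for plots.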

Additional observations from a re-analysis of the deposited data

How the results depend on the processing

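Of 66 alternative values compared with the 95% counting interval of the reported value, 22 stayed within it and 44 did not; 2 more had no such interval. With a score of 50 or more in every list, 41.4% of ERβ peaks were unmatched, with a median score of 56.4, a width of 676.5 bp and a gap of 2536 kb; 11.4% were chained, density ranged 5.15-fold, 22.8% had a mock peak within 10 kb and 24.4% lay in dense windows. At step 7 or more, chosen after the data were seen, these values were 81.7%, 38.8, 618 bp, 309 kb, 7.72%, 1.97-fold, 12.5% and 8.25%. At step 8 or more, chosen likewise, they were 69.3%, 43.8, 684 bp, 728.5 kb, 8.22%, 2.65-fold, 12.2% and 12.04%. By construction, fewer peaks remain in these 3, with 394, 4122 and 1619 unmatched ERβ peaks. The limits also remove weaker ERα and mock peaks, so some of these ERβ peaks touch a weaker peak of another list. The ERβ-alone regions of the main rule at the same limits numbered 299, 4031 and 1505.

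Requiring no other peak within 10 kb gave 67.2% unmatched, a median score of 33.8, a gap of 174.7 kb, 10.2% chained and 3.85% in dense windows. Within 1 kb, the values were 85.0% unmatched, 128.8 kb, 12.7% chained and 6.10% in dense windows. An overlap of 50% of the shorter peak gave 90.4% unmatched, 14.8% chained and 21.5% near mock. Without dense mock windows the values were 93.7% unmatched, 128.1 kb, 12.99% chained and 18.2% near mock. With all sequences of the list kept, density over the 18 chromosomes and chromosomes 10, 12 and X ranged 22.2-fold. The 18 alone gave 1.72-fold, so the widening came from the added chromosomes. Whether it reflects how peaks were called there was not tested. A chain gap of 5 kb gave 8.24% chained and 50 kb gave 46.3%. Calling windows dense from 10 mock peaks gave 37.3%. The variance to mean ratio was 1.796 in windows of 500 kb and 3.18 in windows of 2 Mb. No paired analysis was possible because each antibody has 1 library. The lists hold no read counts, so the part of read depth in these values was not tested.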
